A study of Mus musculus with 4 samples.

Results

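The genes of Wnt signalling described here are 34: the 19 mouse Wnt ligands, the 10 Frizzled receptors Fzd1 to Fzd10, the co-receptors Lrp5 and Lrp6, and Ctnnb1, Lef1 and Axin2, which carry the signal or respond to it. They are members by name and family, out of 21887 protein-coding genes placed in the mm10 assembly, and the rule uses no measured value. Every open region that overlapped the body of such a gene or lay within 10 kb of it was assigned to it, which gave 101 of the 61972 regions in the series, at 28 of the 34 genes. All 34 genes are autosomal. The assay was ATAC-seq, which cuts and tags accessible DNA with a transposase, on 4 samples of frozen mouse lung tumour. Both groups were C57B6J mice aged 55 weeks that carried KrasLA1/+, a latent oncogenic allele that becomes active when it recombines by chance. The first group had no other allele named in its genotype. The mice of the second group, KrasLA1/+;Dicer1S2D/+, also had 1 copy of Dicer1S2D, a form of the microRNA-processing enzyme Dicer1 altered to mimic phosphorylation. Each group held 2 libraries. Replicate 1 was female and replicate 2 male in either group, so sex and replicate number cannot be told apart. KrasLA1 is not limited to lung cells by a promoter or a Cre, and the labels do not say how many tumours went into a sample. Below, the groups are called KrasLA1 and KrasLA1;Dicer1S2D, and 4 values in a row follow the order KrasLA1 replicates 1 and 2, then KrasLA1;Dicer1S2D replicates 1 and 2.

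Wnt proteins are secreted, lipid-modified ligands that bind a Frizzled receptor, and in the canonical branch also Lrp5 or Lrp6, at the surface of a nearby cell. Binding stops the destruction complex, which contains Axin proteins, from marking beta-catenin, the product of Ctnnb1, for degradation. Beta-catenin then enters the nucleus and acts with TCF/LEF factors such as Lef1 on targets, among them Axin2, which feeds back to restrain the pathway. In the lung, canonical Wnt signals maintain alveolar type 2 cells that act as stem cells, and other ligands such as Wnt5a act mainly through branches that do not need beta-catenin. Fibroblasts are a well-known source of lung Wnt ligands.

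The data tell where the authors called a peak in each library, and no peak height or read depth is given. The 4 libraries held 34767 to 50282 peaks, with the fewest in KrasLA1;Dicer1S2D replicate 2 and the most in KrasLA1;Dicer1S2D replicate 1. The tissue label was checked against marker genes. All 11 markers of lung epithelium and of tumours derived from it, such as Nkx2-1 and Sftpc, had a region, and at 10 of the 11 all libraries had a peak less than 2 kb from an end of the gene. Regions were found at 5 of 9 fibroblast and smooth muscle markers, 3 of 6 endothelial markers, 5 of 7 immune markers and 2 of 4 neural markers. They were also found at all 4 airway markers. Of all autosomal protein-coding genes, 76.9% had a region and 54.2% had such a peak near an end in every library. The fibroblast markers Col1a2, Col3a1, Tcf21 and Dcn had none. In bulk tumour, fewer cells with an open region and a less open region in each cell cannot be told apart.

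Of the 101 regions at the Wnt genes, 48 (47.5%) were called in all 4 libraries, beside 43.5% of all 60713 autosomal regions. A further 25 (24.8%) were called in only 1 library, beside 27.7% of autosomal regions. Regions of receptors were more often shared in these counts: 13 of the 20 Frizzled regions (65%) were in all 4 libraries, against 18 of the 41 ligand regions (43.9%). The co-receptors had 14 of 31 regions in all 4 libraries, and Axin2 and Ctnnb1 together had 3 of 9. These shares are descriptions of the lists, with no test. The count of genes with a region, 28 of 34, stood beside 76.9% of all autosomal protein-coding genes.

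**Figure D1:**
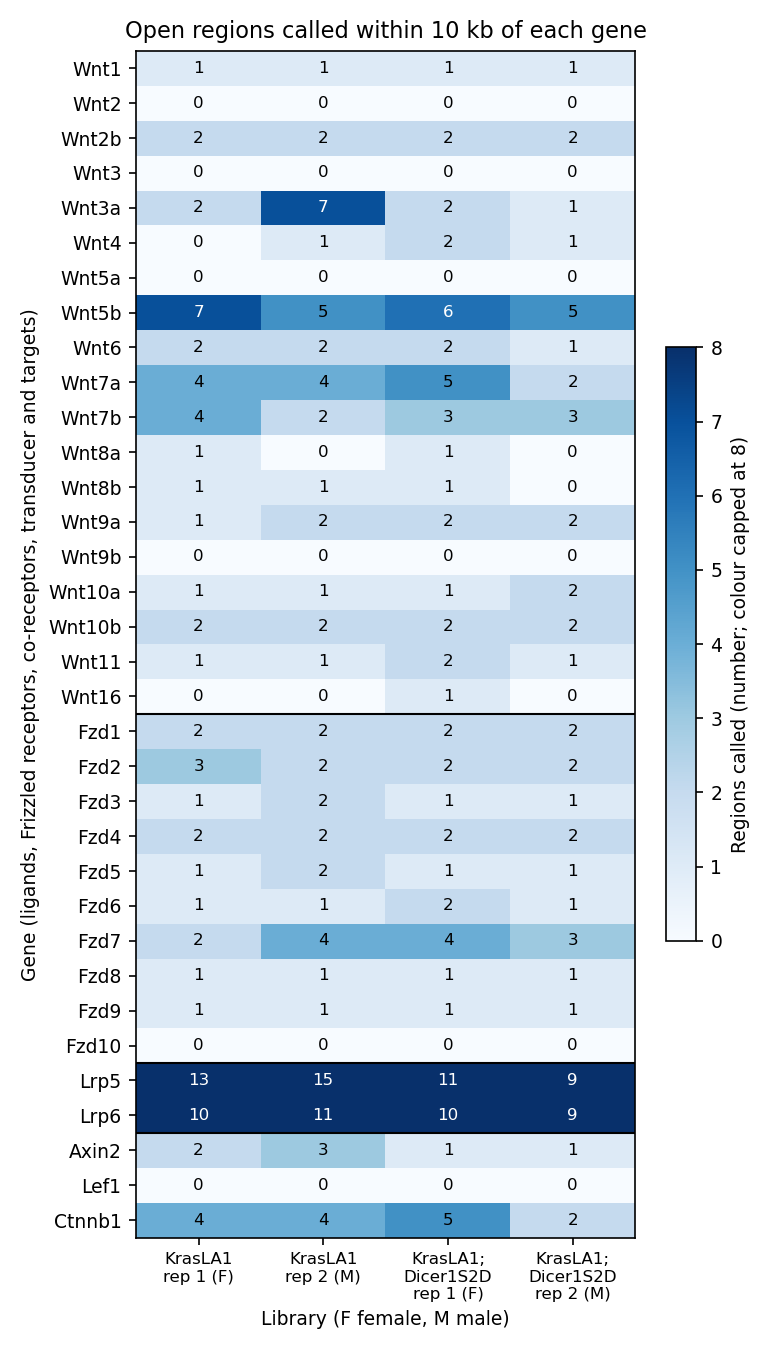
Regions within 10 kb of each of the 34 Wnt pathway genes (rows) in each library (4 columns). The number and the shade of a cell give how many regions were called. Lrp5 and Lrp6 have the most regions in every library, and Wnt2, Wnt3, Wnt5a, Wnt9b, Fzd10 and Lef1 have none. Counted over any library, which is not drawn, Lrp5 had 17 regions and Lrp6 had 14.

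Among the ligands, 15 of 19 had a region. Transcription start positions are listed by RefSeq for 24 of the 34 genes, 15 of them ligands. A start peak is a peak that overlaps the window from 250 bases before a listed start to 50 after it. Of the 15 ligands, 3 had a start peak in all 4 libraries: Wnt1, Wnt2b and Wnt9a. At 3 more, Wnt5b, Wnt7a and Wnt11, there was a start peak in some libraries, and at the remaining 9 in none. Over all 24 genes the counts were 10 in all 4 libraries, 3 in some and 11 in none. Of the 16457 autosomal genes with a listed start, 50.2% had a start peak in all 4 libraries and 42.4% in none.

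Wnt1, known for its role in the midbrain and in mammary tumours, had 1 region, at its start, with peaks of 546, 867, 620 and 667 bp. At Wnt2b, a canonical ligand of foregut and lung specification, the start peak spanned 470, 1166, 415 and 362 bp. Wnt9a, a ligand studied in joints and in blood stem cell development, had a start peak of 352, 623, 240 and 341 bp. All these start peaks were widest in KrasLA1 replicate 2. At Wnt2b and Wnt9a both KrasLA1 peaks were wider than both others, and at Wnt1 the groups overlapped. Such an order was common: of all 26402 autosomal regions shared by the 4 libraries, 27.2% had both KrasLA1 peaks wider and 3.66% had both narrower. At the Wnt genes it was 11 (22.9%) and 1 (2.08%) of 48 shared regions. The median width of all shared regions was 604, 713, 610 and 562 bp. The Wnt9a peak, with a mean of 389 bp, was among the 3 narrowest that lay within 2 kb of a gene end in all 4 libraries. Another was at Wnt5b, with 310, 308, 350 and 260 bp at 292 bp outside its end. The third was at Wnt10a, a ligand of skin and teeth, with 410, 438, 426 and 382 bp at 659 bp inside an end. The shared Wnt10b region, 1791 bp inside an end of the gene, had peaks of 185, 651, 429 and 268 bp. Its KrasLA1;Dicer1S2D replicate 2 peak did not come within 2 kb of an end.

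Wnt5b, a mostly non-canonical ligand, had the largest covered length of the ligands in every library, with 7 regions and 4982, 3877, 4217 and 2915 bp. Its widest region, at chr6:119478747-119480769 with peaks of 1769, 1818, 1790 and 1324 bp, also overlapped Fbxl14, which lies inside the Wnt5b gene body. That region cannot be assigned to Wnt5b alone, and the rank of Wnt5b among the ligands counts it. The most distal of the 3 listed Wnt5b starts had a start peak only in KrasLA1 replicate 1, of 612 bp, which also overlapped Gm52875. Wnt7b, a canonical ligand of lung epithelium that drives growth of the developing airway and its mesenchyme, had 4 regions and covered 2299, 1409, 1548 and 733 bp. It has no listed start, and its region at one end of the gene, chr15:85581158-85582124, had peaks of 733, 772 and 613 bp in the first 3 libraries and none in KrasLA1;Dicer1S2D replicate 2. Its relative Wnt7a had 5 regions and covered 1741, 1465 and 3408 bp in the first 3 libraries, and in KrasLA1;Dicer1S2D replicate 2 it had 2 peaks of 175 and 522 bp. The highest and the lowest Wnt7a values were both in the KrasLA1;Dicer1S2D group, so the groups overlapped fully.

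Several ligands were open in some libraries only. Wnt3a, a classic canonical ligand, had 7 regions in KrasLA1 replicate 2 but only 2, 2 and 1 in KrasLA1 replicate 1 and the KrasLA1;Dicer1S2D libraries. A Wnt3a peak of 605 bp lay 77 bp downstream of the start in KrasLA1 replicate 2 alone, beyond the start window. Wnt4, which acts in the kidney and reproductive tract, had 0, 1, 2 and 1 regions. Wnt16, a ligand of bone, had a region of 739 bp in KrasLA1;Dicer1S2D replicate 1 alone, and Wnt8a one of 359 and 167 bp in the libraries numbered 1 of each group. The only region at Wnt8b was called in the first 3 libraries, and none of its peaks reached the listed start. Wnt6 kept 1 region inside the gene in all 4 libraries, with 244, 453, 277 and 247 bp. Wnt11, a non-canonical ligand, had a region over the second of its listed starts that is described with its sequence below.

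The 4 ligands without a region were Wnt2, Wnt3, Wnt5a and Wnt9b. The nearest region in any library lay 32509 bp from Wnt2, a canonical ligand of lung mesenchyme, and 47722 bp from Wnt5a. It was 29140 bp away for Wnt9b and 75953 bp away for Wnt3. These 2 genes overlap at their ends on chromosome 11, so no peak was called over their shared locus in any library. The other close ligand pairs were not: Wnt3a and Wnt9a, 16097 bp apart, had 2, 8, 3 and 2 regions over their joint span, and the pairs Wnt1 with Wnt10b and Wnt6 with Wnt10a had 2 in every library. The fibroblast and smooth muscle markers covered 4608, 4346, 4228 and 2508 bp in all, and any part of cell composition in the ligand loci without a region was not tested. A peak below the authors' unknown threshold would also be recorded as absent.

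**Figure D2:**
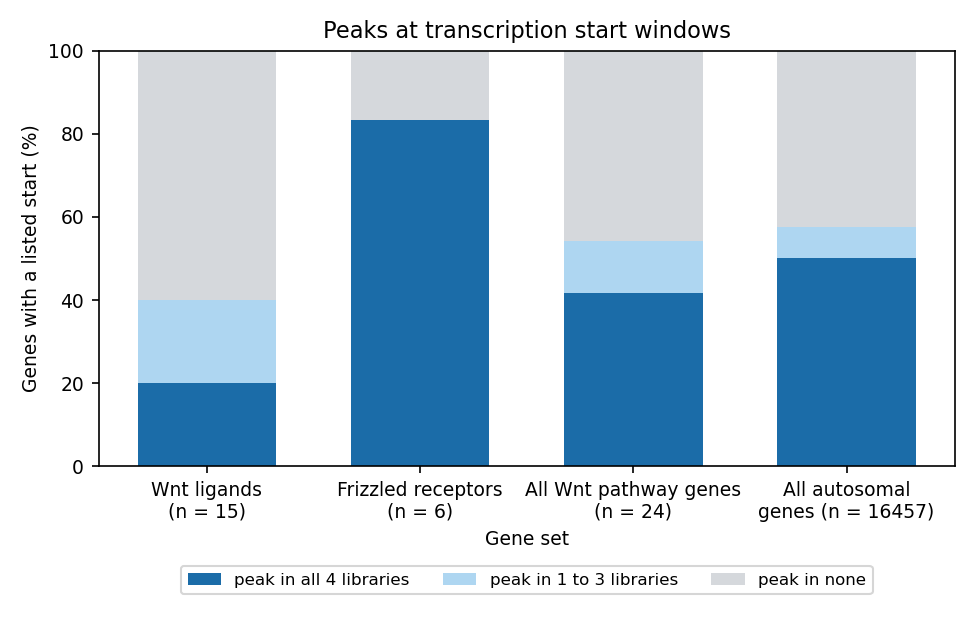
Percent of genes with a listed start that have a start peak in all 4 libraries, in 1 to 3 or in none (stacked bars), for the ligands, the Frizzled receptors, all 24 Wnt pathway genes with a listed start and all 16457 autosomal genes. Of the 15 ligands, 9 have no start peak, and 5 of 6 Frizzled genes have one in all 4 libraries.

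The Frizzled receptors, 7-pass membrane proteins that bind Wnt through an outer cysteine-rich domain, were open at nearly every gene. At 9 of 10 Frizzled genes every library had a peak less than 2 kb from an end of the gene, as did 6 of 19 ligands and 54.2% of all autosomal protein-coding genes. No library had one at 1 Frizzled gene and 9 ligands, nor at 35.8% of all such genes. At the 5 with a listed start and a region, Fzd1, Fzd4, Fzd5, Fzd7 and Fzd9, every library had a start peak. Fzd10 was the exception: it had no region, and the nearest, in KrasLA1;Dicer1S2D replicate 2 alone, was 21619 bp away.

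The 3 widest of these peaks among the 34 genes were all at Frizzled genes. At Fzd8, where the region covers an end of the gene, peaks spanned 2144, 2626, 1831 and 2121 bp, at percentiles 99.8, 99.9, 99.5 and 99.9 of the widths of regions shared by all 4 libraries. The start peak of Fzd5 spanned 1595, 1963, 1672 and 1933 bp, and that of Fzd1 1959, 1831, 1561 and 1699 bp, at percentile 98 or above in each library. The peaks of these 3 genes were wide in both groups. At Fzd8 and Fzd1 both KrasLA1 peaks were wider than both others, and at Fzd5 the groups overlapped. Fzd4, also a receptor for norrin in vessels, had a start peak of 1486, 1737, 1332 and 1370 bp, which also overlaps Tmem135. The start peak of Fzd7 spanned 1302, 1305, 1038 and 1097 bp. Those of Fzd9 were narrower, with 375, 588, 366 and 598 bp. Both KrasLA1 peaks were wider than both others at Fzd4 and Fzd7 and not at Fzd9, and in the fit of widths given below none of these passed the test.

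Fzd2, Fzd3 and Fzd6 have no listed start, and each had a region over an end of the gene in all 4 libraries. The Fzd2 peak there spanned 590, 888, 501 and 853 bp and the Fzd3 peak 480, 766, 726 and 810 bp. Fzd6, a receptor of the planar polarity branch, had one of 922, 1197, 1072 and 808 bp. None of the 3 separated the groups.

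Lrp5 and Lrp6, the single-pass co-receptors of the canonical branch, held 31 of the 101 regions. Their bodies, 101761 and 120438 bp, are among the longest of the 34, and a longer gene has more room for regions. Lrp5 had 13, 15, 11 and 9 regions and Lrp6 had 10, 11, 10 and 9, with 7 of each called in all 4 libraries. A shared Lrp5 region, chr19:3575123-3576286 with 942, 1059, 896 and 908 bp, lay 8538 bp outside the gene and overlapped Ppp6r3. That region cannot be assigned to Lrp5 alone, and the counts and covered length of Lrp5 include it. At Lrp5 the region over one end of the gene had peaks of 1093, 1504, 1136 and 1047 bp, and at Lrp6 it had 779, 937, 651 and 977 bp. Both were present in every library with no separation of the groups.

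Ctnnb1, which encodes beta-catenin, had a start peak of 510, 422, 365 and 432 bp and covered 1207, 2435, 1587 and 828 bp over 6 regions. Axin2 had a start peak in every library, of 553, 615, 556 and 613 bp, which varied little between libraries. Lef1 had no region within 10 kb. The peaks nearest to any of its 4 listed starts were 89648, 89660, 109286 and 109141 bp away, and no peak was called over Lef1, a gene 114061 bp long, in any of the 4 tumours. The nearest region to the gene body itself, 21585 bp away, was called in both KrasLA1 libraries and in neither KrasLA1;Dicer1S2D library.

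The bases before the starts with a start peak in some libraries only are shown with those of Axin2, which had one in all 4, and of the first Lef1 start, which had one in none. Each run is the 250 bases before the start, 5′ to 3′ on the strand of the gene, from RefSeq for GRCm38.p6, the assembly of mm10. Capitals mark the AP-1 motif.
Axin2, chr11:108920099-108920348, plus strand: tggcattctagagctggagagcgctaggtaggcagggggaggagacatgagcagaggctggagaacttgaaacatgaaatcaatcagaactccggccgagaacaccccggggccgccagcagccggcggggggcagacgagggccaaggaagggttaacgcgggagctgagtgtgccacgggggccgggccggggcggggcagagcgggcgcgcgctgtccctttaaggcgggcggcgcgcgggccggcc
Wnt11, chr7:98838595-98838844, plus strand: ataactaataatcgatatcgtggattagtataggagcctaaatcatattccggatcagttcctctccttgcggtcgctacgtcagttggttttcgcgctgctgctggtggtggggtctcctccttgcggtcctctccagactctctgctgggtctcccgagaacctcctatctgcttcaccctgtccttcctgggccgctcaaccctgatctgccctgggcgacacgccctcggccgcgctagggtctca
Wnt7a, chr6:91411354-91411603, minus strand: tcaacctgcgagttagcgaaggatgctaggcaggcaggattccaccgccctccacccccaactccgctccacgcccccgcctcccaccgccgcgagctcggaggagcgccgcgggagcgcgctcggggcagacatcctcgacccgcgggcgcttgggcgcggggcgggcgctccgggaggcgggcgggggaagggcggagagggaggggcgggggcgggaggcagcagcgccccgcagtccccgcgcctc
Wnt5b, chr6:119544348-119544597, minus strand: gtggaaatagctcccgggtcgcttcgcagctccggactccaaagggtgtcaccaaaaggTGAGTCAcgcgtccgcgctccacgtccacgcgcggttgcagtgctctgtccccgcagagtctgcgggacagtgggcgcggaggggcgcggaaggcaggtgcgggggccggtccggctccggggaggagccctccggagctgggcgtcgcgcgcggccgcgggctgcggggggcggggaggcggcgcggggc
Lef1, chr3:131110047-131110296, plus strand: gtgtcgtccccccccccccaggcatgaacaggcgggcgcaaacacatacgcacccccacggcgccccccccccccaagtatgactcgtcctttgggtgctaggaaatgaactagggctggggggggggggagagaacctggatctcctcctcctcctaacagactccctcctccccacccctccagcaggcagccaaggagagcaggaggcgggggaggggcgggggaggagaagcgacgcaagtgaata

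The Axin2 stretch lies inside the gene body of the table, and the start peak of 553 to 615 bp reached it in all 4 libraries. The Wnt11 stretch also lies inside the gene, before the second of its 2 listed starts, and its region had peaks of 717, 1014, 357 and 544 bp. The peak of KrasLA1;Dicer1S2D replicate 1 ended 458 bp short of the start, and the others covered it. At Wnt7a the sequence was flanked rather than covered: a region that begins 227 bp before the start had peaks of 229, 293 and 336 bp in the first 3 libraries. A region 91 bp after the start had peaks of 192 and 379 bp in KrasLA1 replicate 2 and KrasLA1;Dicer1S2D replicate 1. Only the KrasLA1;Dicer1S2D replicate 1 peak before the start reached into the window, and replicate 2 of that group had neither. Both Wnt7a and the distal Wnt5b start are rich in CG, with 34 and 35 CG dinucleotides in the 250 bases, against 11 before the first Lef1 start and 24 before that of Axin2.

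CG content and peaks were compared over all 31 listed starts of the 24 genes. The ratio of observed to expected CG dinucleotides had a median of 0.887 at the 11 starts with a start peak in all 4 libraries and 0.522 at the 17 with none, beside 0.771 and 0.226 over all 20085 autosomal starts. At a ratio of 0.8 or more, a limit chosen after seeing the values, 81.4% of the 5207 such starts had a peak in all 4 libraries and 12.3% had none. Of the 14 Wnt gene starts past that limit, 7 had a peak in all 4 libraries and 4 had none, those of Wnt3a, Wnt4 and Fzd10 and the first start of Wnt11. Fzd10, at 1.02 with no region near, and Wnt4, at 1, were therefore CG-rich starts without a peak in any of the 4 tumours. No test was made, since some starts of a gene overlap.

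**Figure D3:**
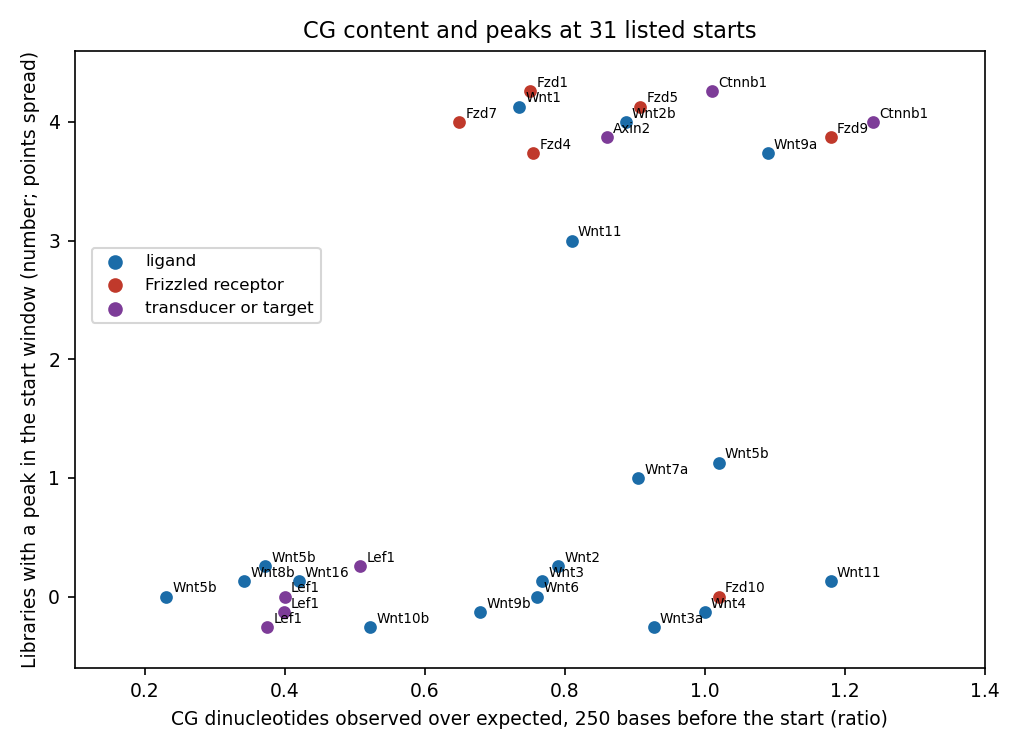
Observed over expected CG dinucleotides in the 250 bases before each listed start of the Wnt pathway genes, by the number of libraries with a peak in the start window, with points spread around each number. Starts with a peak in all 4 libraries lie between 0.649 and 1.24, and starts with none between 0.231 and 1.18.

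The same 250 bases were searched on both strands. The motifs were CTTTGAA and CTTTGAT, the core of TCF/LEF sites, and TGACTCA, the AP-1 site, with its reverse complement TGAGTCA. The motif sets do not overlap in sequence. A TCF/LEF match was found at 2 of the 31 starts (6.45%), 1 of Wnt5b and the first of Wnt11, beside 6.68% of all starts. An AP-1 match was found at 1 (3.23%), the distal Wnt5b start shown above, beside 4.09% of all starts. These letters were not in the window before Axin2 or before any Lef1 start, and a match or its lack says nothing of binding.

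The genotypes were compared by regions called in both libraries of a group and in neither of the other. At the 34 genes 0 of 101 regions were called in both KrasLA1;Dicer1S2D libraries only, beside 0.596% of autosomal regions, and 4 (3.96%) were called in both KrasLA1 libraries only, beside 1.42%. The 4 lay 1 each at Axin2, Wnt3a, Lrp5 and Lrp6. Of all 15882 autosomal genes with a region, 4.87% had a KrasLA1-only region and 1.78% a KrasLA1;Dicer1S2D-only one, against 4 and 0 of 28 Wnt genes. Presence in 2 against 2 libraries has no test that can reach 0.05, so the counts are read only beside those backgrounds. The cell type markers also had KrasLA1-only regions, at 2 of 11 lung epithelium genes with a region, 1 of 5 fibroblast, 2 of 3 endothelial, 1 of 5 immune and 1 of 4 airway genes, and no KrasLA1;Dicer1S2D-only one. Their part in the counts at the Wnt genes was not tested.

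The KrasLA1-only region at Axin2, chr11:108910544-108911196, lay outside the gene, 9152 bp upstream of the listed start. Its peaks spanned 442 and 639 bp in the KrasLA1 libraries, and the KrasLA1;Dicer1S2D libraries had none. The start peak of the same gene was called in all 4 libraries, and the KrasLA1-only call was at a region away from the start. Axin2 had 3 regions in all, and 4.57% of genes with 3 to 5 regions had a KrasLA1-only one.

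At Wnt3a the KrasLA1-only region was chr11:59261105-59261396, inside the gene and 29354 bp downstream of its start, with peaks of 248 and 292 bp. Of the other 6 Wnt3a regions, 4 were called in KrasLA1 replicate 2 alone. Genes with 6 to 10 regions had a KrasLA1-only region in 11.4% of cases.

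The regions at the co-receptors were also inside the genes. At Lrp5 it was chr19:3609871-3610258, with 388 and 301 bp, and at Lrp6 it was chr6:134534938-134535626, with 285 and 689 bp. Both lay far from either end of the gene, at 25045 and 31286 bp. Among genes with 11 to 20 regions, 22.7% had a KrasLA1-only region, so such a region was common at genes with as many regions as Lrp5 and Lrp6. Whether the 4 regions lie in introns or exons was not annotated in the gene table used.

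**Figure D4:**
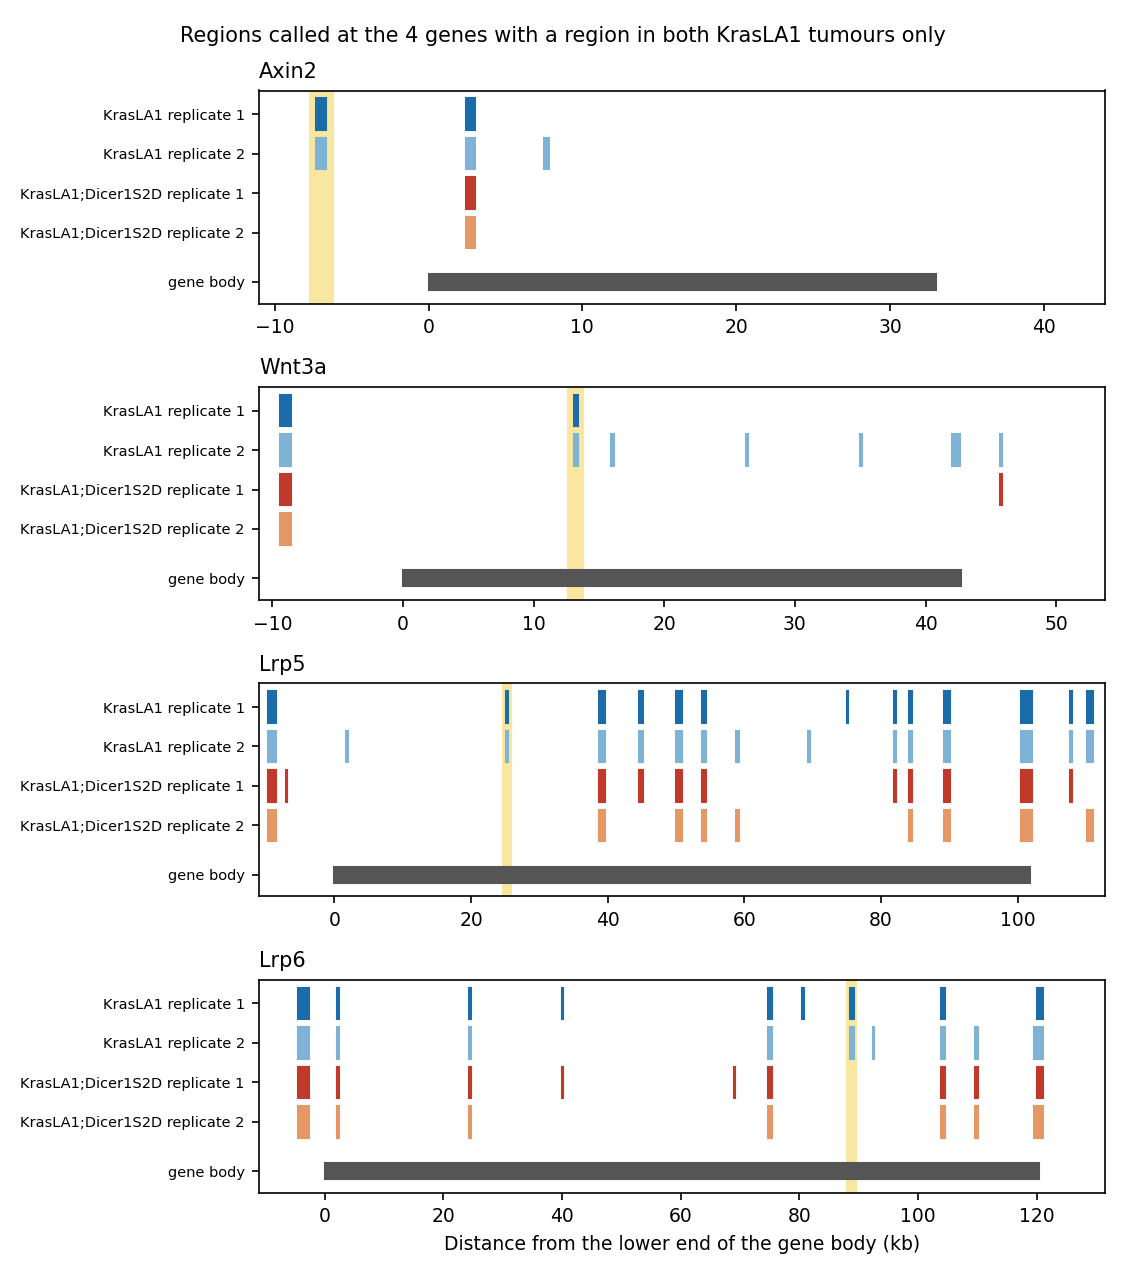
Regions called in each library (rows) around Axin2, Wnt3a, Lrp5 and Lrp6, drawn at the full extent of the merged region by distance in kb from the lower end of the gene, with the gene body as a bar and a yellow band around the region called in both KrasLA1 libraries only. The Axin2 region is the only one of the 4 that lies outside its gene.

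When the same number of widest peaks, 34767, was taken from each library, the KrasLA1-only regions of Axin2 and Lrp6 remained. Those of Wnt3a and Lrp5 did not, and Wnt7a and Fzd4 each had a KrasLA1;Dicer1S2D-only region. These were 2 of each kind among 81 regions. Of the 48120 autosomal regions under this setting, 1.29% were KrasLA1-only and 1.18% KrasLA1;Dicer1S2D-only, closer to each other than with all peaks. With 1 library left out the rule is easier to meet, and the KrasLA1-only regions at Axin2, Wnt3a, Lrp5 and Lrp6 meet it by construction. KrasLA1-only regions were 16 of 97 and 8 of 91 without KrasLA1 replicates 1 and 2, beside 11% and 7.95% of autosomal regions. Without KrasLA1;Dicer1S2D replicates 1 and 2 they were 12 of 93 and 5 of 100, beside 7.64% and 2.63%.

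The length covered by peaks within 10 kb gave a graded value per gene, fitted for all 13993 autosomal genes with a peak in all 4 libraries. After the adjustment of Benjamini and Hochberg, limma called 0 of the 24 Wnt genes in the fit and 0% of all genes, and 252 genes had an unadjusted p under 0.05. The log2 difference, KrasLA1;Dicer1S2D minus KrasLA1 and centred on the median of each library, was above 0 at 9 and below 0 at 15 of the 24. Its median was -0.12, with a range from -0.92 to 0.40, beside 0.02 over all genes. The marker lists had medians of -0.56 (fibroblast, 3 genes in the fit), -0.27 (immune, 5), -0.24 (endothelial, 3), -0.21 (airway, 4) and -0.06 (lung epithelium, 11), whose part was not tested either. Passing this fit needs a peak in every library, so the 10 genes left out include those with a region in some libraries only.

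Axin2 was the only one of the 24 with an unadjusted p under 0.05. It covered 995, 1531, 556 and 613 bp, and both KrasLA1 values were above both KrasLA1;Dicer1S2D values, as at 9 of the 24 genes (37.5%) and 30.5% of all genes in the fit. The reverse order was seen at 0 of the 24 and at 1.89% of all. Its log2 difference was -0.88 (SE 0.31, limma adjusted p = 1), and within the gene body alone it was -0.10, since the upstream region falls outside. The lowest value of the 24 was at Wnt6, with 974, 1191, 991 and 247 bp and a log2 difference of -0.92 (SE 0.56). It rested on KrasLA1;Dicer1S2D replicate 2, which lacked a region with peaks of 730, 738 and 714 bp in the other libraries. That region lay 4722 bp outside Wnt6 and overlapped Prkag3, so it cannot be assigned to Wnt6 alone. Wnt3a covered 856, 2553, 1026 and 490 bp, a difference of -0.86 (SE 0.50), which was -0.19 without KrasLA1 replicate 2.

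At the co-receptors the groups also differed little. Lrp5 covered 6155, 8886, 5748 and 5028 bp and Lrp6 covered 4399, 5822, 4425 and 3677 bp. The log2 differences were -0.26 (SE 0.21) for Lrp5 and -0.13 (SE 0.19) for Lrp6. Only for Lrp5 did the groups not overlap. The Frizzled genes lay between -0.26 at Fzd7 and 0.37 at Fzd3, and Ctnnb1 was at -0.38 (SE 0.36).

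**Figure D5:**
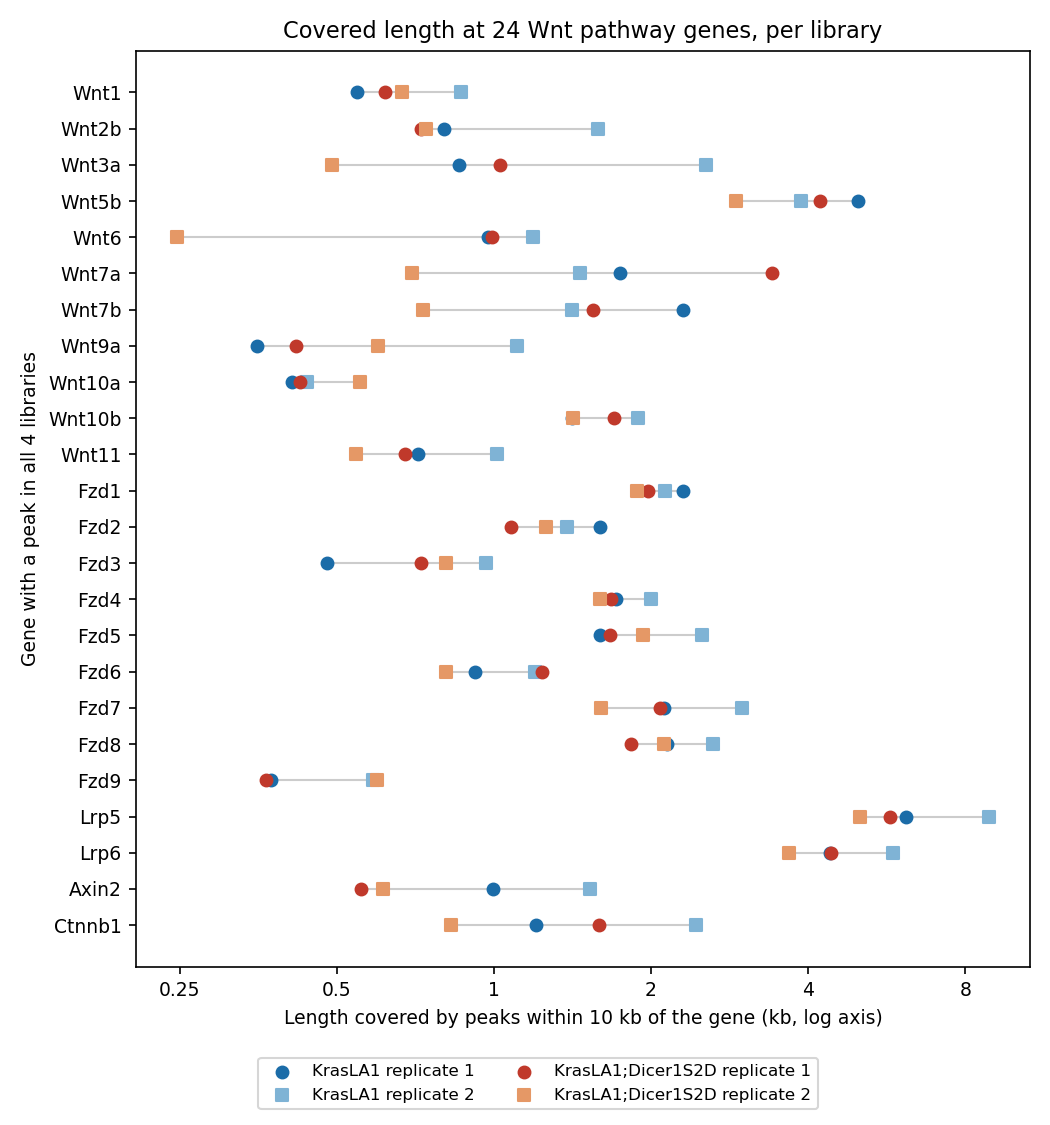
Base pairs covered by peaks within 10 kb of each of the 24 Wnt pathway genes with a peak in all 4 libraries (log axis, kb); circles are replicate 1 and squares replicate 2, blue for KrasLA1 and red or orange for KrasLA1;Dicer1S2D. Axin2 is the gene whose KrasLA1 points, 995 and 1531 bp, lie farthest above both others.

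Peak width was fitted for the 26402 autosomal regions called in all 4 libraries, and limma called 0 of the 48 at Wnt genes and 0% of all, with 681 regions at an unadjusted p under 0.05. The median log2 difference was -0.02 at the Wnt genes and 0.04 over all regions, with 22 above 0 and 26 below. The unadjusted p was under 0.05 for 2 regions. At Fzd7, chr1:59483361-59484263, which lies 1213 bp downstream of the start, peaks spanned 819, 821, 470 and 217 bp, a log2 difference of -1.20 (SE 0.39, limma adjusted p = 0.999). The start peak of Fzd7 differed by -0.12 (SE 0.17). At Wnt11 the region over the second start differed by -0.79 (SE 0.31, limma adjusted p = 0.999). In both regions the KrasLA1 peaks were wider than those of KrasLA1;Dicer1S2D in every pairing of libraries, and neither passed the adjustment. That order was seen at 11 of the 48 regions (22.9%) and at 27.2% of all 26402, so it is not particular to these 2.

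By library, 72, 81, 76 and 58 of the 101 regions were called (71.3%, 80.2%, 75.2% and 57.4%), beside 66.0%, 71.8%, 78.8% and 54.9% of autosomal regions. The share was 75.7% ± 6.30 (SD, n = 2) in KrasLA1 and 66.3% ± 12.6 (SD, n = 2) in KrasLA1;Dicer1S2D. The difference of -9.41 percentage points was within the spread of the libraries (exact two-sided permutation p = 0.667, where the smallest possible is 0.33). Over all autosomal regions it was -2.07 points (exact permutation p = 1). KrasLA1 replicate 2 had 12 of the 25 Wnt gene regions found in 1 library only, 48% beside 32.1% over the autosomes, and 4 of the 12 were at Wnt3a.

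The rest of the pathway was described through 75 further genes in 8 lists, of which 73 are autosomal. A region was found at 69, with 367 regions in all, and at 50 every library had a peak less than 2 kb from an end of the gene. No gene passed the covered-length test. A KrasLA1-only region was found at 6 of the 69 and a KrasLA1;Dicer1S2D-only region at 1, beside the 4.87% and 1.78% of genes given above. By region these were 6 and 1 of the 367, beside 1.42% and 0.596% of autosomal regions. Genes with more regions have more chances of one: the KrasLA1-only share was 4.57% at 3 to 5 regions and 11.4% at 6 to 10. The 9 planar polarity genes and the 13 nuclear partners of beta-catenin all had regions. So did all autosomal genes of the lists for secretion, alternative receptors, the destruction complex and feedback. Regions were found at 8 of 9 genes of the R-spondin axis and 12 of 15 secreted antagonists, beside 76.9% of all autosomal protein-coding genes.

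KrasLA1-only regions lay inside Notum, which removes the lipid of Wnt (260 and 404 bp), and Ror1, a receptor kinase for Wnt5a (530 and 931 bp). They lay inside Znrf3, a ubiquitin ligase that clears Frizzled from the surface (258 and 489 bp), and Csnk1a1, a kinase of the destruction complex (397 and 287 bp). The other 2 were inside Tcf7l1, a TCF family repressor (387 and 339 bp), and 9247 bp outside Kremen1, a receptor for Dkk proteins (200 and 336 bp). In 5 of these 6 genes the region lay in the gene body, as in 3 of the 4 described above. A KrasLA1;Dicer1S2D-only region was found inside Bcl9l, a co-activator of beta-catenin, with 217 and 196 bp in the KrasLA1;Dicer1S2D libraries.

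No region was found at Rspo4, an R-spondin, or at the antagonists Dkk1, Dkk4 and Sostdc1. Lgr5, an R-spondin receptor and Wnt target of gut stem cells, was open in KrasLA1;Dicer1S2D replicate 1 alone, with 3 regions and 1452 bp, and it was singled out after its values were seen. With a single library open there is no difference between the groups to describe at Lgr5.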

How the data were processed

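ATAC-seq of 4 lung tumour samples was used. Per the labels' protocols, library preparation, sequencing and analysis were done by Active Motif. MACS3 3.0.0, BWA 0.7.12 and deepTools 3.5.1 appear in the submitters' processing notes, with no settings. Per the file headers, the authors deposited intervals in mm10: peaks per library and merged regions, with no count, score or depth. The sources used here do not give the shifting and filtering of reads or the peak threshold. Width and covered length stood in for signal, which they need not follow.

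Merging peaks that overlap by 1 bp gave the authors' 61972 regions exactly. Genes were placed with RefSeq's GRCm38.p6 table, which has no strand or exons, and starts with RefSeq's start windows. limma 3.58.1 (R 4.3.3, moderated with trend) was fitted on log2 width and log2 covered length, centred per library, with Benjamini-Hochberg adjustment at 0.05. Other values used Python 3.11.15 and exact permutation tests. The merging and the covered-length fit were also run on simulated data. The simulated lengths had the same noise at every gene, so that run does not measure the power of the fit here. Named were all genes of the list, those of the pathway with a group-specific region or none, and all sequences by start state. The genes and lists were chosen with earlier results of these data known. Whether samples came from separate litters is not stated, so p-values measure the spread between these mice.

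Alternatives varied the gene window, the merging, the number and width of peaks, the centring, a replicate block and the libraries kept.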

Additional observations from a re-analysis of the deposited data

Results flagged for a closer look

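The difference between genotypes went opposite ways at the 2 replicate numbers, which are also the sexes. The share of the 101 Wnt gene regions called, KrasLA1;Dicer1S2D minus KrasLA1, was 3.96 percentage points in replicate 1 and -22.8 in replicate 2. Over all autosomal regions it was 12.8 and -16.9. The number of peaks per library moved the same way, and its part in the result was not tested.

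Wnt7a covered 1.96 times as much length in KrasLA1;Dicer1S2D as in KrasLA1 in replicate 1 (3408 against 1741 bp) and 0.476 times as much in replicate 2 (peaks of 175 and 522 bp against 1465 bp in all). It was the only gene of the 24 with such opposite moves of at least 1.5-fold (4.17%), beside 840 of 13993 genes (6%). With 1 library in each cell of this comparison, neither difference was tested.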

How the results depend on the processing

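The 34 genes had 0 KrasLA1;Dicer1S2D-only and 4 KrasLA1-only regions, each at a separate gene. A window of 50 kb gave 1 and 6 of 231 regions, at 1 and 7 genes, now with Wnt9a, Fzd4 and Lef1 and, for the former, Fzd5. Within 2 kb of a start or gene end there were 0 of either. Equal numbers of widest peaks gave 2 of each among 81 regions, beside 1.18% KrasLA1;Dicer1S2D-only and 1.29% KrasLA1-only of autosomal regions. The widest 75% gave 0 and 1 (Axin2) of 77, beside 0.678% and 1.49%. Leaving out a library gave 1 to 8 KrasLA1;Dicer1S2D-only regions, at 1 to 8 genes, and 5 to 16 KrasLA1-only regions, at 4 to 9 genes. Without KrasLA1 replicates 1 and 2 in turn the KrasLA1-only regions were 16 of 97 and 8 of 91. Without those of KrasLA1;Dicer1S2D they were 12 of 93 and 5 of 100. Beside them stood 11%, 7.95%, 7.64% and 2.63% of autosomal regions. The KrasLA1;Dicer1S2D-only ones were 1, 4, 1 and 8 in that order, with 2.5%, 5.0%, 2.04% and 12.6% of autosomal regions beside them. Restricting to the gene body or the nearest gene, both merging rules and a minimum width of 200 bp gave 3 to 5 KrasLA1-only regions and 0 of the other kind. The same alternatives, applied to the 75 other pathway genes after seeing the data, gave 1 to 32 genes with a KrasLA1-only and 0 to 27 with a KrasLA1;Dicer1S2D-only region, while the shares of autosomal regions reached 11% and 12.6%.

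No Wnt gene passed in any fit. Over all genes, covered length gave 13 calls with a replicate block and 0 to 11 with a library left out (1 and 11 without KrasLA1 replicates 1 and 2). Same-numbered deviations correlated at 0.123, from 2 pairs that share a number and a sex, so the block is also one by sex. Peak width gave 0 calls with the block, 30 over regions called in any library, with 100 bp added, and 0 to 38 with a library left out (6 and 38 without KrasLA1;Dicer1S2D replicates 1 and 2). Without centring the median gene shifted from 0.0205 to -0.178, and the log2 differences of Wnt3a, Lrp5, Lrp6 and Axin2 stayed below 0. The share difference ranged from -19.9 to -0.5 points with a library left out. Absent depth and an unknown peak threshold limit every absence reported.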
